A study of Mus musculus with 4 samples.

Results

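The enzymes described here inactivate, reduce or interconvert steroids. The 8 genes were chosen by name, with earlier results of these data known. They were the estrogen sulfotransferase Sult1e1, the steroid reductases Srd5a1 and Akr1c14, the corticosteroid reductase Hsd11b1, and the 17-beta-hydroxysteroid dehydrogenases Hsd17b4, Hsd17b10, Hsd17b11 and Hsd17b12. Of these, 7 had a probe set annotated to them alone, with 11 probe sets in all among 22626 on the array. Signals of Srd5a1 were not analysed here; its upstream sequence was.

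The testes came from adult males of 2 kinds, which the series' design text calls recipients. XX/Sry males have an XX pair and an Sry transgene that turns the embryo towards testis development, in testes that lose their germ cells; no source used here gives their strain or the transgene's promoter. W/Wv males were a purchased cross of the WB and B6 strains with mutant alleles of the receptor gene Kit, which leave few germ cells in the testis. Each kind was measured as seminiferous tubules, freed from the interstitium with collagenase, and as whole testis, which gave 4 groups: XX/Sry tubules, W/Wv tubules, XX/Sry whole testis and W/Wv whole testis. Every group had 1 array, so no difference within a preparation has a replicate check, and no source used here says whether animals were pooled or gave both preparations.

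Steroid action in the testis depends on removal and conversion as well as on synthesis. Leydig cells, which lie between the tubules, make testosterone from cholesterol, and other enzymes then reduce it, oxidise it or couple it to sulfate or sugar, which changes how well it binds a receptor. Sult1e1 adds sulfate to estrogens and so stops them from binding estrogen receptors; in the mouse testis it is known as a Leydig cell enzyme. Several 17-beta-hydroxysteroid dehydrogenases are named for a steroid reaction but work mainly on other substrates. Hsd17b4 acts in peroxisomal beta-oxidation and Hsd17b12 in fatty acid elongation, while Hsd17b10 acts in mitochondrial isoleucine breakdown.

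The values are MAS5 signals, a linear measure of brightness that was scaled array by array. Median signals were between 157 and 172 on 3 arrays and 183 in W/Wv whole testis. The highest signal of 27 bacterial control probe sets with no mouse target served as a background bound, which lay between 46.1 and 76.3. All 12 Sertoli cell and all 8 Leydig cell markers measured were above the bound on every array, so the tubule arrays also held Leydig cell signal. Of 11 germ cell markers, 3 were above it on every array, but in W/Wv whole testis 0 were below it. The summed signal of the germ cell markers was 1004 in XX/Sry tubules, 1024 in W/Wv tubules, 949.8 in XX/Sry whole testis and 5922 in W/Wv whole testis. The Gapdh control had a 3' to 5' signal ratio of 0.930, 0.823, 0.733 and 0.974 on the same arrays in that order, and the actin control 1.85, 1.58, 1.41 and 1.74. The median log2 deviation of 18 spike controls from their mean over the arrays was 0.46 in W/Wv tubules and between -0.18 and -0.09 elsewhere.

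A gene was called different where it changed at least 2-fold the same way in both preparations, the rule in the series' design text. In the comparison of XX/Sry with W/Wv, 1 of the 7 enzymes, Sult1e1, was called higher and 0 were called lower; over all 12393 genes 1.98% were called higher and 3.22% lower. The median log2 ratio of the 7 enzymes was 0.23 in tubules and 0.50 in whole testis, against -0.0026 and -0.10 over all genes. These medians are the ratios of single dim genes. In tubules it is that of Akr1c14, with signals of 68.0 and 58.0. In whole testis it is that of Hsd11b1, whose W/Wv signal of 63.6 was below the background bound. Sult1e1 alone passed 2-fold upwards in tubules, where 11.2% of all genes did, and Sult1e1 and Akr1c14 did in whole testis, where 8.1% of all genes did. By its brightest probe set none passed 2-fold downwards in either preparation, as 10.4% of all genes did in tubules and 13.4% in whole testis. The dimmer probe set of Hsd17b11 was 4.37-fold lower in XX/Sry whole testis.

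**Figure D1:**
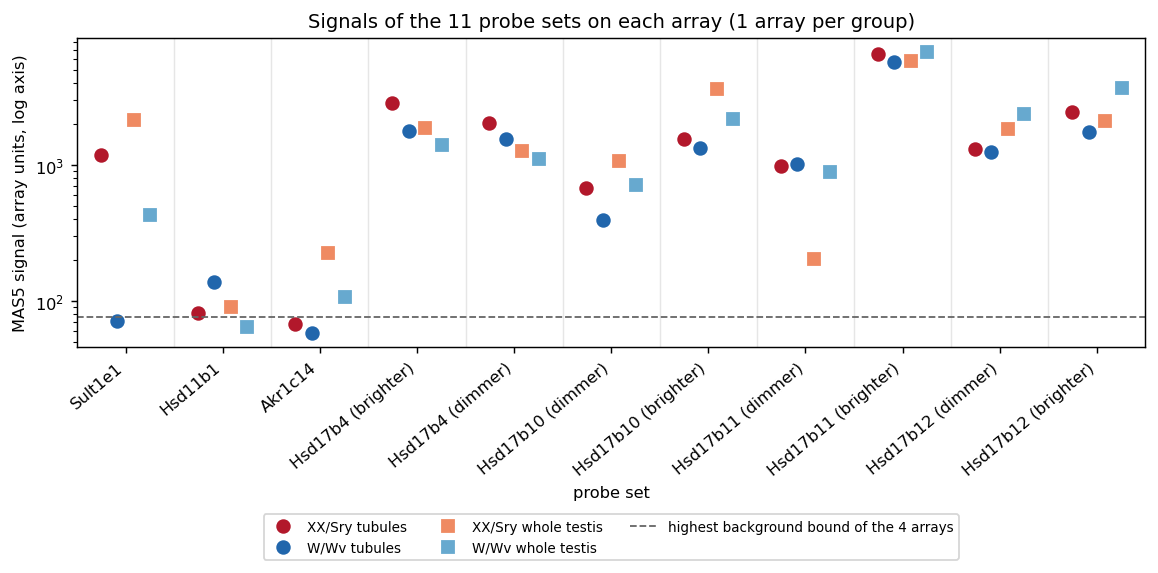
MAS5 signal (log axis) of the 11 probe sets on each of the 4 arrays; each point is 1 array, circles are tubules and squares whole testis, and the dashed line is the highest background bound of the arrays. Sult1e1 is high on both XX/Sry arrays, Hsd11b1 lies between 63.6 and 138 and Akr1c14 is just under the line in tubules, and the dimmer Hsd17b11 probe set is low in XX/Sry whole testis alone.

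Sult1e1, on chromosome 5, had a signal of 1191.5 in XX/Sry tubules and 70.5 in W/Wv tubules. In whole testis it was 2151 in XX/Sry and 426 in W/Wv. Both XX/Sry arrays thus lay above both W/Wv arrays, and the lowest value, in W/Wv tubules, was close to the background bound of that array, 46.1. Sult1e1 was 16.9-fold higher in XX/Sry tubules and 5.05-fold higher in XX/Sry whole testis. On the log2 scale the tubule ratio was 4.08, and it was 3.36 once a constant of 50 was added to every signal, while the whole testis ratio of 2.34 was then 2.21. Among 22626 probe sets, Sult1e1 ranked 52 from the top by its genotype ratio in tubules and 454 in whole testis.

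An additive fit of genotype and preparation was made with limma on the log2 signals. It takes the 2 preparations of a genotype as its replicates, leaves 1 residual degree of freedom, and counts a genotype difference that varies between preparations as error. Sult1e1 was 3.21 ± 0.39 (SE) higher in XX/Sry on the log2 scale, with an adjusted p of 0.00733 over 22626 probe sets. By this fit 0.11% of all probe sets were called higher and 0.0398% lower. The call was lost, with an adjusted p of 0.706, when the prior variance was not allowed to follow the mean signal; over the 6 alternatives the adjusted p of Sult1e1 ran from 3.77e-18 to 0.706.

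The other Leydig cell genes were set beside Sult1e1. All 8 markers of that cell type had a lower genotype ratio than Sult1e1 in tubules, where their log2 ratios ran from -0.39 to 2.11 with a median of 1.13. In whole testis they ran from 0.18 to 1.06 with a median of 0.75, again all 8 below the 2.34 of Sult1e1. Their summed signal was 37288 in XX/Sry tubules and 16999 in W/Wv tubules, with 78643 in XX/Sry and 47305 in W/Wv whole testis. Ratios above 0 were found for 7 of the 8 in tubules and for all 8 in whole testis, and the part of Leydig cell content in the Sult1e1 ratio was not tested. In such bulk tissue a larger number of cells of a type and more RNA per cell cannot be told apart.

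**Figure D2:**
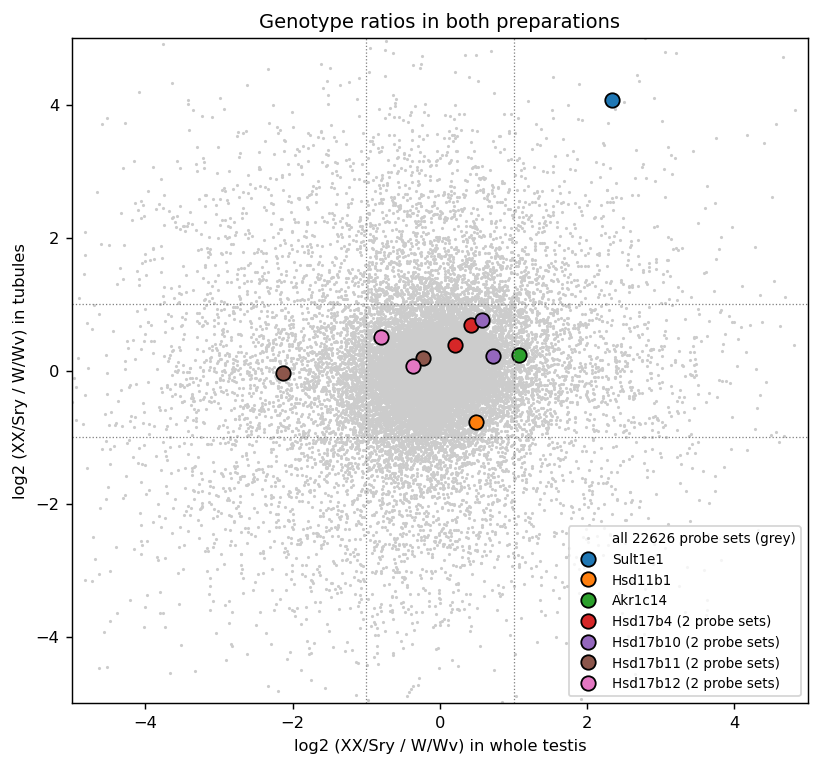
Log2 ratio of XX/Sry over W/Wv in tubules (vertical axis) against whole testis (horizontal axis) for all 22626 probe sets (grey) and for the 11 probe sets of the enzymes (coloured); dotted lines mark 2-fold, and 60 probe sets lie beyond the axis limits of 5. Sult1e1, at 2.34 and 4.08, is the single enzyme beyond 2-fold on both axes.

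The sequence upstream of Sult1e1 is shown because this gene carries the genotype difference, and that of Hsd17b10 to set a sequence with more CpGs and other motif matches beside it. Both are the 250 bases before the RefSeq gene start on the gene's own strand (build GRCm38.p6), at chr5:87591612-87591861 on the minus strand for Sult1e1 and chrX:152001646-152001895 on the plus strand for Hsd17b10. Capitals mark matches, on either strand, to 4 motifs that do not overlap one another: the nuclear receptor half-site AAGGTCA, the TATA box TATAAA, the GC box GGGCGG and the CCAAT box CCAAT.
Sult1e1: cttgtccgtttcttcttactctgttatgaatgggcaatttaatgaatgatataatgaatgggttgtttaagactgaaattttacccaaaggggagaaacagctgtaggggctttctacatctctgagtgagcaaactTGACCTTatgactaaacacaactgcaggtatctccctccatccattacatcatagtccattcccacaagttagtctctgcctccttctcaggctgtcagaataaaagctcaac
Hsd17b10: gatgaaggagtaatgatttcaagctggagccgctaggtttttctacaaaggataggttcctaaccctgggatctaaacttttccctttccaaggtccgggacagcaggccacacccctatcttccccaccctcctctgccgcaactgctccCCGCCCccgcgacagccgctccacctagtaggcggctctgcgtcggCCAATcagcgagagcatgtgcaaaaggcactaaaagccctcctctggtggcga

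Upstream of Sult1e1 the search found 1 match, a half-site on the opposite strand (read as TGACCTT) that begins 113 bases before the start. That half-site occurred in 4.08% of 32851 RefSeq upstream sequences of the same length, and in none of the other upstream sequences of the enzymes searched. The Hsd17b10 sequence held 1 GC box and 1 CCAAT box, motifs found in 32.7% and 33.8% of all upstream sequences. The TATA box, found in 12.4% of them, had no match in either. Sult1e1 and Akr1c14 had 1 CpG each in 250 bases and Hsd11b1 had 6, while Hsd17b10 had 12, Hsd17b11 13, and Hsd17b12 and Srd5a1 20 each; over all upstream sequences the median was 6 and the quartiles were 2 and 16. These matches describe letters in the reference sequence; binding was not measured.

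Akr1c14, on chromosome 13, encodes a 3-alpha-hydroxysteroid dehydrogenase that reduces dihydrotestosterone to a weaker androgen. Its signal was 68.0 in XX/Sry tubules and 58.0 in W/Wv tubules, both just above the background bounds of 61.0 and 46.1, and 225 in XX/Sry whole testis and 107 in W/Wv whole testis. The genotypes were thus close in tubules and apart in whole testis, where Akr1c14 was 2.11-fold higher in XX/Sry against 1.17-fold in tubules. It was not called by the rule of both preparations, and the fit gave a log2 difference of 0.65 ± 0.59 (SE, adjusted p = 0.838). In whole testis its log2 ratio of 1.08 lay above those of all 8 Leydig cell markers. In tubules 7 of the 8 were above its 0.23. Over 5 alternatives its log2 ratio in whole testis ran from 0.81 to 1.30, so not every alternative kept it at 2-fold.

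Hsd11b1, on chromosome 1, encodes the enzyme that regenerates active corticosterone and is known in Leydig cells. It was dim on all arrays, with 81.3 in XX/Sry tubules, 138 in W/Wv tubules, 89.7 in XX/Sry whole testis and 63.6 in W/Wv whole testis, the last below the background bound of 76.3. Hsd11b1 was 1.70-fold lower in XX/Sry tubules and at least 1.18-fold higher in XX/Sry whole testis, so the preparations disagreed in direction. The fit gave -0.14 ± 0.63 (SE, adjusted p = 0.981). H6pd, which supplies Hsd11b1 with its cofactor, had log2 ratios of -0.20 in tubules and 0.01 in whole testis. Hsd11b2, which catalyses the reverse reaction, had -0.08 and 0.12. The glucocorticoid receptor gene Nr3c1 had -0.26 and 0.19.

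Hsd17b10, on the X chromosome, encodes a mitochondrial enzyme of isoleucine breakdown that is also a subunit of mitochondrial RNase P. Its brighter probe set had 1541 in XX/Sry tubules and 1323.5 in W/Wv tubules, with 3593 in XX/Sry and 2189 in W/Wv whole testis. The dimmer one had 674.5 and 395.5 in XX/Sry and W/Wv tubules, and 1059 and 714 in XX/Sry and W/Wv whole testis. XX/Sry was the higher genotype on both probe sets in both preparations, by 1.16-fold to 1.71-fold, and never 2-fold. The fit gave 0.47 ± 0.25 and 0.67 ± 0.27 (SE) for the brighter and the dimmer probe set, with adjusted p of 0.666 and 0.505.

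Hsd17b4, on chromosome 18, encodes the peroxisomal multifunctional protein that hydrates and oxidises fatty acyl chains and can oxidise estradiol. The brighter of its 2 probe sets had 2876 in XX/Sry tubules and 1782 in W/Wv tubules, with 1874 in XX/Sry and 1404 in W/Wv whole testis. The dimmer one had 2017 and 1538 in XX/Sry and W/Wv tubules, and 1266 and 1102 in XX/Sry and W/Wv whole testis. Again XX/Sry was higher on both probe sets in both preparations, by 1.15-fold to 1.61-fold, and under 2-fold throughout. The brighter probe set had a log2 difference of 0.55 ± 0.24 (SE) in the fit, with an adjusted p of 0.557. Of the other peroxisomal beta-oxidation genes, 0 of 13 measured were called higher and 1 lower, Acaa1b, whose signal in XX/Sry was below the bound in both preparations.

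Hsd17b12, on chromosome 2, encodes the ketoacyl-CoA reductase of fatty acid elongation in the endoplasmic reticulum. Its brighter probe set had 2462 in XX/Sry tubules and 1734 in W/Wv tubules, with 2105 in XX/Sry and 3665 in W/Wv whole testis. The dimmer one had 1304 and 1245 in XX/Sry and W/Wv tubules, and 1845 and 2371 in XX/Sry and W/Wv whole testis. W/Wv whole testis was the highest array for both, and the germ cell markers were also highest there, with a sum of 5922 against at most 1024 on the other arrays; their part in the Hsd17b12 signal was not tested. The brighter probe set was 1.42-fold higher in XX/Sry in tubules but 1.74-fold lower in XX/Sry in whole testis; the dimmer was 1.05-fold higher and 1.28-fold lower. Fitted over both preparations the differences were -0.15 ± 0.31 and -0.15 ± 0.25 (SE, adjusted p of 0.947 and 0.929). Among 12 elongation genes 0 were called in either direction between genotypes, and Tecr, which catalyses the last step of the same cycle, had log2 ratios of 0.06 in tubules and 0.78 in whole testis.

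Hsd17b11, on chromosome 5, encodes a dehydrogenase of lipid droplets that oxidises androstanediol. Its 2 probe sets disagreed. The brighter had 6557 in XX/Sry tubules and 5762 in W/Wv tubules, with 5791 in XX/Sry and 6776 in W/Wv whole testis, within 1.17-fold between genotypes in each preparation. The dimmer had 986 in XX/Sry tubules and 1008 in W/Wv tubules, but 204 in XX/Sry whole testis against 892 in W/Wv whole testis, which is 4.37-fold lower. That single array was the only low one, and it was not low for the brighter probe set of the gene. By the fit the dimmer probe set differed by -1.08 ± 0.41 (SE, adjusted p = 0.487) and the brighter by -0.02 ± 0.27 (adjusted p = 0.993). None of 10 lipid droplet genes was called between genotypes.

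The other genes of steroid handling were counted from pathway lists, which were also chosen with earlier results of these data known. They held 122 genes, of which 97 were measured. In XX/Sry 4 of them were called higher and 5 lower, which is 4.12% and 5.15% of those measured against 1.98% and 3.22% of all genes. With the brighter array above background in both preparations, 3 were higher (Hsd17b3, Akr1c12 and Akr1c13) and 1 lower (Hsd3b3). Akr1c12 and Akr1c13 belong to the same aldo-keto reductase family and the same region of chromosome 13 as Akr1c14. Akr1c12 had 973 in XX/Sry tubules and 256 in W/Wv tubules, with 626 in XX/Sry and 243 in W/Wv whole testis, 3.80-fold and 2.57-fold higher. Akr1c13 had 2458 and 731 in XX/Sry and W/Wv tubules, and 1380.4 and 614 in XX/Sry and W/Wv whole testis, 3.36-fold and 2.25-fold higher. For both genes the XX/Sry arrays lay above the W/Wv arrays, but their adjusted p in the limma fit was 0.0765 and 0.0661, above 0.05. The pair are near-identical copies, so RNA of one may bind the probes of the other. A probe set shared by both was 5.05-fold higher in tubules and 1.99-fold in whole testis, just under the rule.

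Genes that serve the sulfation step differed less than Sult1e1. Papss1 and Papss2, which make the sulfate donor, had log2 ratios of 0.59 and -0.09 in tubules and of -0.14 and -0.03 in whole testis. Slc26a2, a sulfate transporter, had -0.33 and -0.95 in tubules and whole testis, and Sult1a1, a sulfotransferase of phenols, 0.06 and 0.47. Of 18 conjugation and sulfate genes measured, 1 was called higher and 2 lower (Sult1c1, Sult1b1 and Sult1d1), all 3 below the background bound on all arrays. Hsd17b3, the testosterone-forming enzyme of Leydig cells, was 3.16-fold higher in XX/Sry tubules and 2.02-fold in whole testis, and fell under 2-fold in whole testis after quantile normalisation or an added constant of 50. Hsd3b3 had 30.0 in XX/Sry tubules, below the bound, and 142 in W/Wv tubules, with 219 in XX/Sry whole testis against 916 in W/Wv whole testis, so that it was at least 2.32-fold and 4.18-fold lower. Since the copies of this gene are alike, its probe set may share transcripts with Hsd3b1.

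**Figure D3:**
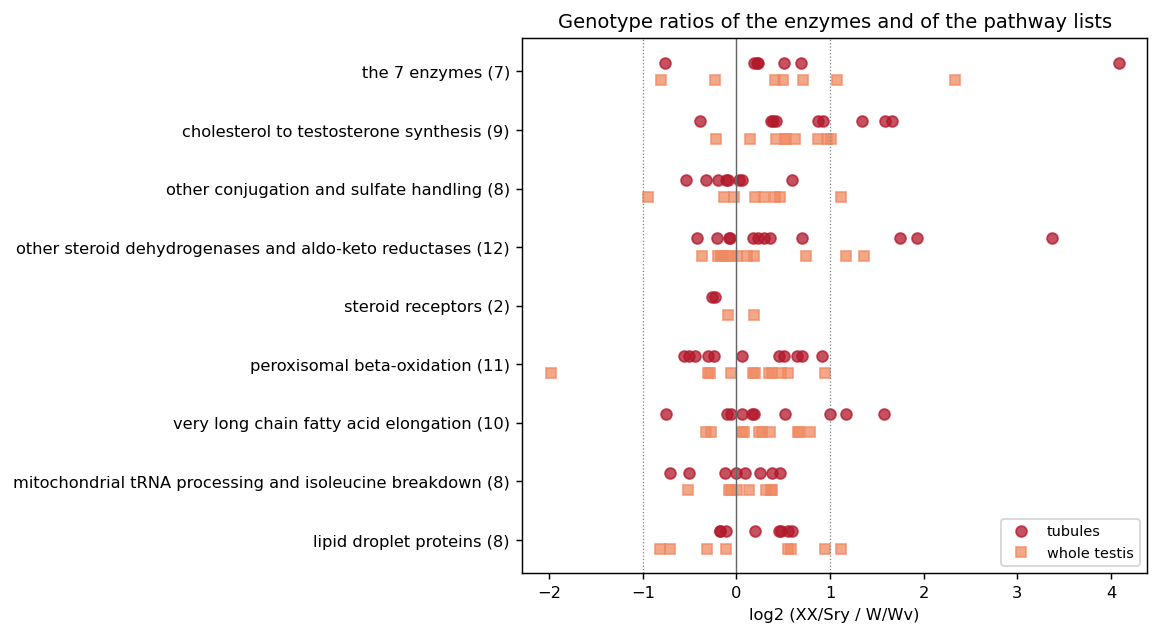
Log2 ratio of XX/Sry over W/Wv for the 7 enzymes (brightest probe set) and for the genes of each pathway list that were above the background bound on all 4 arrays, with their number in brackets; circles are tubules, squares whole testis, and dotted lines mark 2-fold. The Sult1e1 points, at 4.08 in tubules and 2.34 in whole testis, are the farthest right for each preparation.

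Tubules were next set against whole testis within each genotype, a comparison in which digestion and washing enter together with the loss of interstitial cells. None of the 7 enzymes changed at least 2-fold the same way in both genotypes, while over all genes 1.32% were higher and 5.74% lower in tubules. The median log2 ratio of the enzymes was -0.14 in XX/Sry and -0.73 in W/Wv, against -0.02 and -0.15 over all genes. The XX/Sry median is the ratio of Hsd11b1, which was dim in both preparations. Of the 8 Leydig cell markers, 5 were called lower in tubules, as were 8 of 10 macrophage markers and 0 of 12 Sertoli cell markers. The limma fit called 0 of the 11 probe sets, and over all probe sets it called 0.239% higher and 0.977% lower. In this fit 7 of the 11 had an unadjusted p under 0.05, as had 13.9% of all probe sets. These 7 did not share a direction: the dimmer probe sets of Hsd17b4 and Hsd17b11 were higher in tubules and the rest lower. Both probe sets of Hsd17b10 were among them.

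Against whole testis of the same genotype, Sult1e1 was 1.81-fold lower in tubules of XX/Sry and 6.04-fold lower in tubules of W/Wv. Its W/Wv log2 ratio of -2.59 lay below those of all 8 Leydig cell markers, whose median was -1.83; in XX/Sry its ratio of -0.85 lay above 5 of the 8 and below 3, with a median of -1.06. The fit gave -1.72 ± 0.39 (SE, adjusted p = 0.0636). Under 3 of 6 alternatives, with adjusted p from 3.50e-05 to 0.585, that value fell under 0.05.

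Akr1c14 was 3.31-fold lower in XX/Sry tubules and 1.84-fold lower in W/Wv tubules. Hsd17b10 was 2.33-fold and 1.65-fold lower by its brighter probe set, and 1.57-fold and 1.81-fold lower by its dimmer one, in XX/Sry and W/Wv tubules. Both genes were thus dimmer in tubules of each genotype. Akr1c14 and the brighter Hsd17b10 probe set passed 2-fold, in XX/Sry alone, and the dimmer Hsd17b10 probe set in neither genotype. In XX/Sry 14.1% of all genes passed downwards and 9.23% upwards. The log2 ratios of Akr1c14 and Hsd17b10 lay within the ranges of the Leydig cell and of the macrophage markers. In W/Wv, however, Akr1c14 (-0.88) and the brighter Hsd17b10 probe set (-0.73) each lay above 6 of 8 Leydig cell markers. Each also lay above 8 of 10 macrophage markers there. In XX/Sry each lay above 3 of the 8 and 7 of the 10. For Leydig cell markers the range was -2.55 to 0.26 in XX/Sry and -2.42 to 0.75 in W/Wv. Echs1 and Acat1, which act on either side of Hsd17b10 in isoleucine breakdown, had log2 ratios of -1.27 and -0.45 in XX/Sry and of -0.83 and -0.90 in W/Wv, and of 8 genes of that list 0 were called. For the brighter Hsd17b10 probe set the fit gave -0.97 ± 0.25 (SE, adjusted p = 0.103). The summed signal of the 10 macrophage markers was 3893 in XX/Sry tubules against 16615 in XX/Sry whole testis, and 5066 in W/Wv tubules against 12741 in W/Wv whole testis; the part of interstitial cells in these ratios was not tested.

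Hsd17b4 ran the opposite way and was 1.53-fold higher in XX/Sry tubules and 1.27-fold higher in W/Wv tubules by its brighter probe set, with 1.59-fold and 1.40-fold by its dimmer one. All 4 ratios were upwards and under 2-fold, and the fit gave 0.48 ± 0.24 (SE, adjusted p = 0.414) for the brighter probe set. Abcd3 and Abcd2, transporters that bring fatty acids into the peroxisome, were also brighter in tubules. Abcd3 had a log2 ratio of 0.59 in XX/Sry and 0.81 in W/Wv. Abcd2, the single peroxisomal gene called higher with its signal above background, was 2.26-fold higher in each. Most of the peroxisomal beta-oxidation list went the other way. Of its 13 genes measured, 5 had a ratio above 0 in XX/Sry and 4 in W/Wv, with median log2 ratios of -0.37 and -0.65. In W/Wv 18.3% of all genes passed 2-fold downwards and 7.7% upwards. Sult1e1 passed downwards there, as did Hsd17b12 by its brighter probe set. Hsd11b1 passed upwards only by its raw ratio of 2.17, with its whole testis signal below the background bound. Hsd17b12 was 2.11-fold lower in W/Wv tubules and 1.17-fold higher in XX/Sry tubules by its brighter probe set. Hsd11b1 was at least 1.81-fold higher in W/Wv tubules and 1.10-fold lower in XX/Sry tubules, and the brighter Hsd17b11 probe set stayed within 1.18-fold in both. The dimmer Hsd17b11 probe set was 4.83-fold higher in XX/Sry tubules, which again rests on the low XX/Sry whole testis array, and 1.13-fold higher in W/Wv tubules (adjusted p = 0.212 in the limma fit). The dimmer Hsd17b12 probe set was 1.41-fold lower in XX/Sry tubules and 1.90-fold lower in W/Wv tubules, so that in XX/Sry the probe sets of this gene disagreed in direction.

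**Figure D4:**
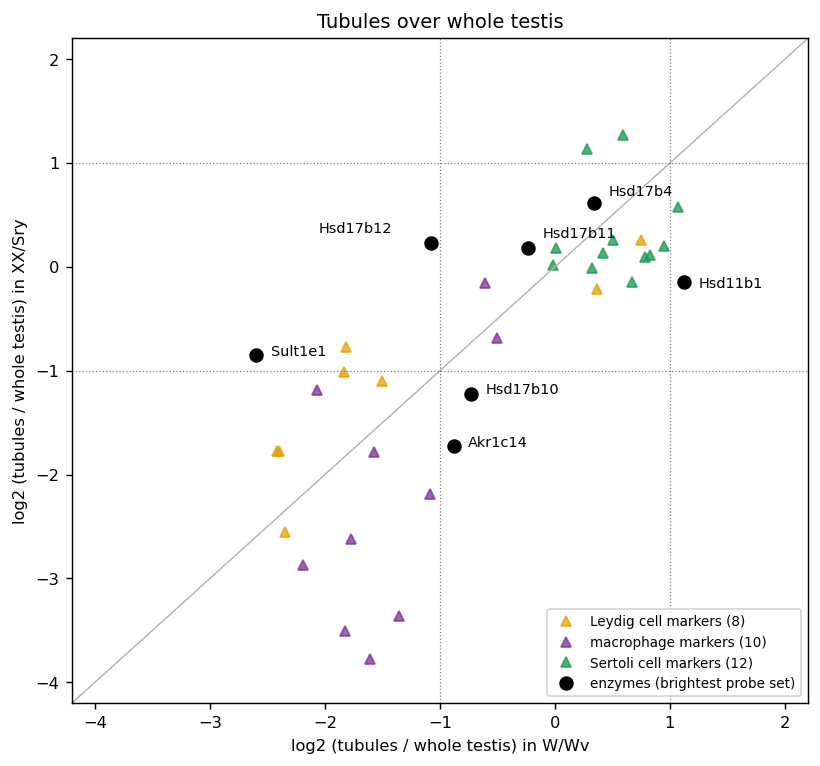
Log2 ratio of tubules over whole testis in XX/Sry (vertical axis) against W/Wv (horizontal axis) for the 7 enzymes (black, brightest probe set) and for markers of Leydig cells (8), macrophages (10) and Sertoli cells (12); dotted lines mark 2-fold and the diagonal equal ratios. Sult1e1, at -2.59 and -0.85, is the leftmost point, Akr1c14 and Hsd17b10 lie below 0 on both axes, and Hsd17b4 lies above 0 on both.

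Among the pathway lists, 12 of 97 genes measured were called lower in tubules, 12.4% against 5.74% of all genes, and 9 of them had the brighter array above background in both genotypes. Of those 9, 7 act in the synthesis of testosterone from cholesterol: Star, Cyp11a1, Cyp17a1, Hsd3b1, Hsd3b3, Hsd17b3 and Fdx1. The others were Akr1cl and Elovl6. Star, Cyp11a1, Cyp17a1, Hsd3b1 and Hsd17b3 are also the Leydig cell markers called lower in tubules, so the counts of these lists overlap. The calls of Star and Cyp17a1 were lost when arrays were centred on their medians, that of Star also when the probe sets of the gene were averaged. Akr1cl, a relative of Akr1c14, had 6097 in XX/Sry tubules and 20502 in XX/Sry whole testis, and 4966 in W/Wv tubules and 18029 in W/Wv whole testis. It was 3.36-fold and 3.63-fold lower in tubules, with an adjusted p of 0.0140 in the limma fit, while its genotype ratios were 1.23-fold and 1.14-fold. Elovl6, an elongase of saturated fatty acids, was 4.24-fold lower in XX/Sry tubules and 3.05-fold lower in W/Wv tubules (adjusted p = 0.0261), and its dimmer probe set had an adjusted p of 0.259. The calls of Akr1cl and Elovl6 by the fit were both lost without the trend in the prior variance, where limma called 0 probe sets in this comparison and 1961 had an unadjusted p under 0.05.

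For each enzyme the genes with the most similar profile were taken by Euclidean distance between log2 signals, each centred on its mean over the 4 arrays, among 12619 probe sets above background on all of them. The nearest to Sult1e1 were the kallikreins Klk1b27 (0.95), Klk1b24 (1.05) and Klk1b21 (1.11), then Plbd1 (1.34) and Ndrg4 (1.43). These distances were larger than those of the other enzymes, whose nearest genes lay between 0.027 and 0.18. Plbd1 had 1829.8 in XX/Sry tubules and 139 in W/Wv tubules, with 1477 in XX/Sry and 303 in W/Wv whole testis, so that in XX/Sry it was brighter in tubules, unlike Sult1e1. The kallikreins are near-identical copies whose probe sets may share transcripts. The genes nearest to Akr1c14 were Mgll, Pon2, Zfp207, Hpgd and a probe set of Scp2, at 0.18 to 0.23. Nearest to Hsd17b10 were Slc9a3r2, Apip, Pank1, Acy3 and Tecr, at 0.11 to 0.14, and nearest to Hsd17b4 were Iffo2, Faim, Gclc, Cklf and Slc4a5. With 4 arrays many genes share a profile, and nearness says nothing beyond these arrays.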

How the data were processed

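RNA of the 4 groups was hybridised to Affymetrix Mouse 430A arrays, 1 array a group. The deposited values are intensity on a linear scale, MAS5 signals per the submitters' processing notes and Microarray Suite per the design text of the labels. No source used here gives the scaling target or detection calls; trimmed mean signals were near 500.2 on each array. Of 22690 probe sets, 64 controls were set aside. The platform annotation gave 20380 probe sets 1 gene symbol, 691 several and 1555 none. A gene stands by the probe set with the highest mean log2 signal. There were 0 unused columns of values.

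Folds are ratios of deposited signals, XX/Sry over W/Wv and tubules over whole testis. A dimmer signal under its array's background bound gave a lower limit, the brighter signal divided by the higher of both bounds, written as at least that fold; pairs with both signals under the bound got none. The additive fit used limma 3.58.1 in R 4.3.3 on log2 signals without offset. The eBayes prior variance followed the mean signal, with 9.98 degrees of freedom. Tests were two-sided, with Benjamini-Hochberg adjustment over 22626 probe sets. The fit was also run on simulated data with independent noise and genotype effects equal in both preparations. That run could not check shared animals or genotype differences that vary between preparations. Where tubules and whole testis shared animals, the spread between animals is missing from the error of the fit. With 4 arrays their number limits the precision of every value. Alternatives were median centring, quantile normalisation, a constant of 50 added, a floor at the bound, the mean of all probe sets of a gene, filters on dim probe sets and eBayes without a trend.

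The enzymes and the gene lists were chosen with earlier results of these data known. Genes outside the 8 enzymes were named where they passed the rule of both pairs above background, where they act beside an enzyme, or where they were among the 5 nearest profiles. Sult1c1, Sult1b1, Sult1d1, Acaa1b, Cbr3 and Hsd17b1 fall outside this rule and were named after their values were seen. Upstream sequences are from RefSeq, build GRCm38.p6, and were read for 7 of the 8 genes, all but Hsd17b4.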

Additional observations from a re-analysis of the deposited data

Results flagged for a closer look

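The dimmer probe set of Hsd17b11 was picked out because its genotype ratio differed more than 4-fold between preparations, by 2.10 on the log2 scale (tubules minus whole testis). Its log2 ratio of XX/Sry over W/Wv was -0.03 in tubules and -2.13 in whole testis. The brighter probe set of the gene had 0.19 and -0.23. With 1 array a group this difference was not tested.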

How the results depend on the processing

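No paired analysis was possible because each group had 1 array and no replicate numbers, and for the same reason no replicate could be left out. The genotype and preparation ratios of the 7 enzymes kept their sign under every alternative run except 2 of 28: Hsd11b1 in XX/Sry (-0.14, and 0.03 after quantile normalisation) and Hsd17b12 in XX/Sry (0.23, and -0.14 as a mean of probe sets), both of tubules over whole testis. As a mean of its probe sets, Hsd17b11 had a log2 genotype ratio of -1.18 in whole testis, where its brighter probe set had -0.23. The signal over background limits Sult1e1, whose W/Wv tubule signal is near the bound: its log2 ratio of tubules over whole testis in W/Wv was -2.59, and -1.98 with a constant of 50 added.

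Counts over all probe sets moved more. For probe sets 2-fold higher and lower in XX/Sry (497 and 859), the constant of 50 gave 128 and 91, the floor 166 and 121, and the filter on dim probe sets 267 and 304; median centring gave 534 and 824, and quantile normalisation 627 and 664. For tubules (409 higher and 1326 lower), median centring gave 620 and 1030, quantile normalisation 643 and 918, the constant 99 and 382, the floor 130 and 518, and the filter 213 and 710. Pathway genes higher in XX/Sry were 4, and 2 with the constant; those lower were 5, and 1 with the constant and 1 with the floor; those higher in tubules were 2, and 0 with the constant and 1 with the floor.

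The limma fit called 25 higher and 9 lower in XX/Sry. It called 57 and 19 after quantile normalisation, 249 and 144 with the floor, and 66 and 19 after the filter. For tubules it called 54 higher and 221 lower, and 356 and 784 with the floor, 107 and 353 after the filter, 86 higher after quantile normalisation, and 128 lower after median centring. Without a trend limma called 0 and 0 for genotype, where 1489 probe sets had an unadjusted p under 0.05, and 0 and 0 for preparation, where 1961 had. The causes were not tested. In the preparation comparison the adjusted p of Sult1e1 was 0.0401 after quantile normalisation, 3.50e-05 with the floor and 0.0336 after the filter; with the floor that of the brighter Hsd17b10 probe set was 0.0202 and that of the dimmer Hsd17b11 probe set 0.00757.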

Other observations

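Cbr3, a carbonyl reductase on the list of steroid dehydrogenases and aldo-keto reductases, was chosen after its values were seen. It had 794 in XX/Sry tubules and 77.1 in W/Wv tubules, 10.3-fold higher, and 529 in XX/Sry whole testis and 316 in W/Wv whole testis, 1.67-fold higher, so that it did not pass in both preparations. Like Sult1e1 it was lowest in W/Wv tubules, but its log2 ratio of tubules over whole testis in XX/Sry was 0.59, and that of Sult1e1 -0.85.

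Hsd17b1, which forms estradiol in the ovary, was also chosen after its values were seen. It had 34.8 in XX/Sry tubules, below background, and 306 in W/Wv tubules, with 101 in XX/Sry whole testis and 141 in W/Wv whole testis.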
